A study of Mus musculus with 8 samples.

Results

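The Krueppel-like factor genes Klf2, Klf3, Klf4, Klf6, Klf7, Klf9, Klf10, Klf11, Klf12 and Klf13 were followed in mouse bone marrow MPPs, the multipotent progenitors below the stem cell. They were taken by gene symbol from a list of family members, and make up 10 of the 37980 gene rows measured. RNA sequencing of MPPs addressed what the NUP98-HOXA10hd fusion (NA), a part of the nucleoporin NUP98 joined to the homeodomain of HOXA10, changes in these cells. The NA group came from C57BL/6 mice with genotype NA LSL/+; Vav-Cre, in which a Cre recombinase active in blood cells switches the fusion on. The WT group came from C57BL/6 mice for which no Cre was stated. Each group had 4 libraries, named here NA1 to NA4 and WT1 to WT4, and each library held 1000 cells sorted as lineage-negative, c-kit+, Sca1+, CD135+, CD48- and CD150-. Age, and whether the libraries of a group came from separate mice, were not given, so p-values measure the spread between these libraries, which may be technical.

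Krueppel-like factors are transcription factors with a conserved zinc finger domain at the C-terminal end that binds GC-rich and CACCC elements, and they differ in the N-terminal part that recruits other proteins. Klf2, Klf4, Klf6 and Klf7 mostly act with histone acetyltransferases as activators, Klf3 and Klf12 bind the CtBP corepressors, and Klf9, Klf10, Klf11 and Klf13 bind the Sin3 corepressor complex. In blood cells the family is known for roles in quiescence, adhesion and lineage choice, and several members are induced within minutes by stimulation, shear or tissue dissociation.

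The libraries held between 3876893 and 4916987 estimated reads. Values are normalised read counts, which are the deposited counts already divided by a size factor per library. Of the genes of the sorting gate, Kit was at 1363 ± 111 normalised read counts in NA and 1197 ± 107 in WT, Flt3 at 1442 ± 45.4 and 1375 ± 68.0, and Ly6a, which encodes Sca1, at 1277 ± 88.5 and 1548 ± 63.3 (SD, n = 4 each). Cd48, a marker the gate excludes, was at 17.7 ± 5.36 and 56.1 ± 21.3 (SD, n = 4 each). Ly6a (log2 difference -0.28, limma adjusted p = 0.0257) and Cd48 (-1.58, limma adjusted p = 0.00712) were both lower in NA. Of the fusion's parts, Hoxa10 was at 324 ± 32.04 in NA and 139 ± 7.997 in WT (SD, n = 4 each; limma adjusted p = 2.57e-05), and Nup98 at 85.0 ± 10.9 and 72.2 ± 12.1 (limma adjusted p = 0.443). Xist was at 1104 ± 173 in WT and 1.92 ± 1.001 in NA (SD, n = 4 each), so donor sex and genotype cannot be told apart. No member lies on the X or Y chromosome. The summed level of 7 monocyte and macrophage markers was 12.2 to 27.1 in NA and 36.4 to 78.6 in WT, and that of 6 endothelial markers 607 to 683 and 579 to 724. None of the 7 former markers was at 0 in all libraries and 0 of 1 tested was called, at an adjusted p below 0.05 in limma. Of the endothelial markers, Cdh5 was at 0 throughout and 1 of 3 tested was called. This was Tek, lower in NA (-0.91, limma adjusted p = 0.0128), while Pecam1 (0.39) and Emcn (0.20) did not pass. Of 7 erythroid markers the sum was 31.9 to 61.1 in NA and 147 to 269 in WT, with Hbb-bt, the 1 tested, called lower (-1.99, limma adjusted p = 6.79e-05). Of 7 granulocyte markers it was 1384 to 1691 and 1732 to 2577, with Elane and Ly6g at 0 throughout and 1 of 3 tested, Prtn3, called lower (-0.41, limma adjusted p = 0.0181). The monocyte and macrophage, erythroid and granulocyte sums did not overlap between the groups. Single genes made up most of the granulocyte, erythroid and endothelial sums. Prtn3, at 1523.4 on average in NA and 2027.5 in WT, made up most of the granulocyte sum. Hbb-bt, at 41.2 and 162.9, made up most of the erythroid sum, and Emcn, at 480 and 421, most of the endothelial sum. The part of these cell types in the results was not tested.

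The fourth libraries were close to sums of the others. Over 4731 genes outside the Klf and Sp families, WT4 lay at a median of 4.83% from a weighted sum of WT1, WT2 and WT3, against 3.88% from counting alone. NA4 lay at 7.34% from a sum of NA1, NA2 and NA3 over 4717 genes, against 4.37% from counting alone. Libraries 1 to 3 lay 10.8% to 11.8% (WT) and 11.8% to 12.4% (NA) from the best sum of the other 2, a fit with 1 library fewer. With the fourth library added to that sum, WT1 lay at 6.77% and NA2 at 8.17%, close to NA4, and the other libraries at 9.91% to 12.004%. The members were not used in the weights. The WT sum gave 961 for Klf2 and 707 for Klf6, where WT4 held 988 and 697. The NA sum gave 956 and 2259, where NA4 held 908 and 2209. Klf7 and Klf3 lay further off in NA4, at 120 and 47.2 where the sum gave 152 and 65.0. The weights of libraries 1 to 3 were 0.24, 0.685 and 0.07 for NA4, and 0.554, 0.258 and 0.189 for WT4. The difference of each member is therefore given with all 8 libraries and without NA4 and WT4.

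**Figure D1:**
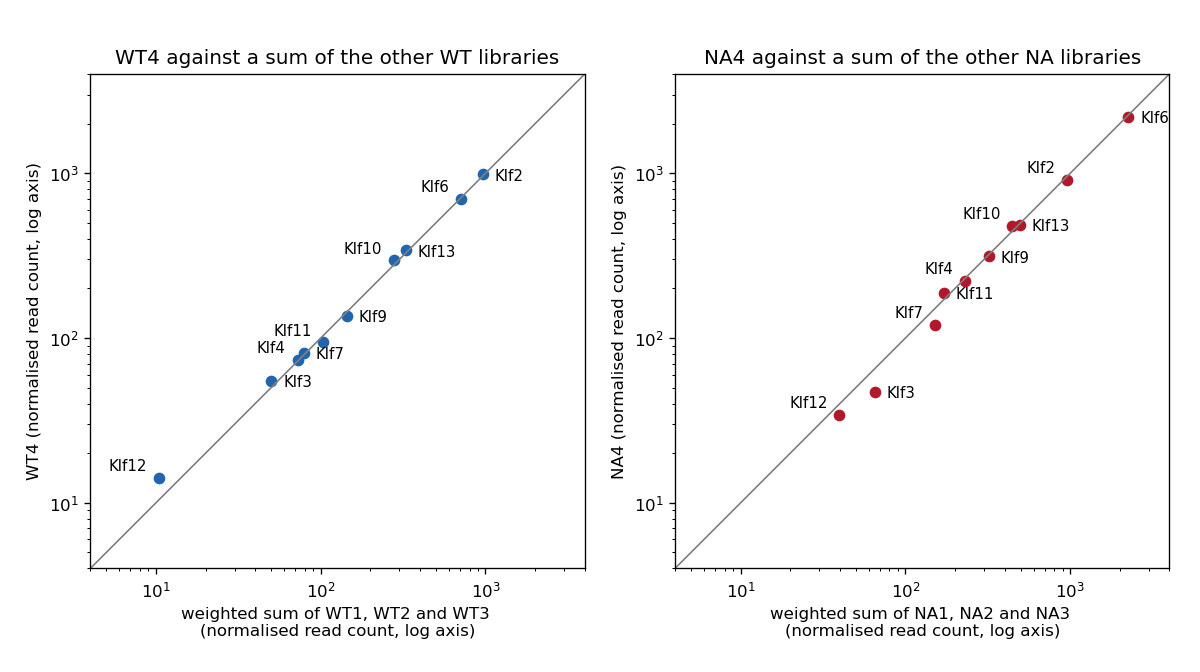
Each member in the fourth library (y axis, normalised read count, log axis) against the weighted sum of libraries 1 to 3 of its group (x axis, same unit and scale), WT on the left and NA on the right, with the line of equality. The points lie near the line, and Klf3 in NA4 (47.2, against 65.0 from the sum) and Klf12 in WT4 (14.2, against 10.4) lie furthest from it in proportion.

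Promoter sequence is shown for 3 members because they differ in elements that known inputs of the family bind: Klf2, the only one of 9 with a MEF2 element, Klf9, the only one with a FoxO element, and Klf6, the member with the largest called difference, which had neither. On GRCm38, Klf2 (ENSMUSG00000055148) spans chr8:72319033-72321656 and Klf6 (ENSMUSG00000000078) chr13:5861482-5870394, both on the plus strand. Klf4 (ENSMUSG00000003032) spans chr4:55527143-55532466, Klf7 (ENSMUSG00000025959) chr1:64029447-64122282 and Klf10 (ENSMUSG00000037465) chr15:38291463-38300706, all on the minus strand, and Klf9 (ENSMUSG00000033863) chr19:23141226-23168134 on the plus strand. Each member is a separate locus on a chromosome of its own. The table of RefSeq promoters (GRCm38.p6) held 9 of the 10 members and not Klf10, and each runs from 250 bases before to 50 bases after RefSeq's start on the coding strand. That start lay within 133 bases of the GENCODE gene start in 7 members, but 893 bases inside the gene in Klf7 and 134883 bases inside it in Klf12, so the Klf12 window is not at the start of its longest gene model. The Klf2 promoter is chr8:72318812-72319111, that of Klf6 chr13:5861239-5861538 and that of Klf9 chr19:23140976-23141275, all on the plus strand. Capitals mark GGGCGG and CACCC on either strand, the MEF2 element of Klf2 and the GTAAACA of Klf9.
Klf2: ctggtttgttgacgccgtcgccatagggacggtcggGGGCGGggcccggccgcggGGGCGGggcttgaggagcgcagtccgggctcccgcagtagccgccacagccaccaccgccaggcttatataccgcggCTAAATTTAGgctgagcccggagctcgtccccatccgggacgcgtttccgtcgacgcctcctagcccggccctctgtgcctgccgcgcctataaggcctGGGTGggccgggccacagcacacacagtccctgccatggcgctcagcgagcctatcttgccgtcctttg
Klf6: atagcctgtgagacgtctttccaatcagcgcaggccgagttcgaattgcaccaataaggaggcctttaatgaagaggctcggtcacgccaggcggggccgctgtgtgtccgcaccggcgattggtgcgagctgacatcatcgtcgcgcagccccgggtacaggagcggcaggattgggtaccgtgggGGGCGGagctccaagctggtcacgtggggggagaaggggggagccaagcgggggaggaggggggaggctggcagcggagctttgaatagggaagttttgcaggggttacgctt
Klf9: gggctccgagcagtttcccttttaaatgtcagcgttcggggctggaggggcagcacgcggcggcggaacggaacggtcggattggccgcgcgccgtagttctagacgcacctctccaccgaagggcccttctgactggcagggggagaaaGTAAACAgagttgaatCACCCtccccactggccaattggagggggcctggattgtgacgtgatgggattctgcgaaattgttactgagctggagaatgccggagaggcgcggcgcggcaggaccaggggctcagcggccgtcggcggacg

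The MEF2 element of Klf2 (CTAAATTTAG) starts at -118, and such a match stood in 0.557% of 32851 promoters of the same length. MEF2 is the factor through which the kinase ERK5 induces Klf2. The GTAAACA of Klf9, a FoxO and forkhead core, starts at -100 and was found in 3.65% of promoters. GGGCGG, which Sp and Krueppel-like factors bind, stood in 7 of 9 member promoters (35.7% of all), and CACCC in 6 of 9 (57.5% of all). The Smad element GTCTAGAC, the glucocorticoid response element, the serum response CArG box, TGACGTCA and TGACTCA, all searched on both strands, had no match in the 9 windows, where they stood in 0.213%, 0.0244%, 1.63%, 1.79% and 5.20% of all promoters. The 9 windows held 6 to 42 CpG, with 42 in Klf11 and 6 in Klf12, and the median of all promoters was 7. A match is a run of letters and not a measured binding site.

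All 10 members passed the filter on low values (at least 10 normalised read counts in at least 4 libraries). In limma, 4 of the 10, Klf6, Klf7, Klf9 and Klf10, were higher in NA at an adjusted p below 0.05 and 0 were lower. Across all 11451 tested genes 17.9% were called, 10.1% higher and 7.87% lower. At an unadjusted p below 0.05, 7 members were higher and 0 lower, against 16.9% and 15.6% of all tested genes. The median member difference was 0.85 on the log2 scale, where the median of all tested genes was -0.01. Without NA4 and WT4, 2 members were called, Klf7 and Klf10, both higher, while 4.63% of 11117 genes were called, 3.33% higher. Klf6 and Klf9 also missed the threshold without the low-value filter (limma adjusted p = 0.0662 and 0.0829) or without the variance trend of the fit (0.0658 and 0.0799). In bulk samples such as these, fewer cells that transcribe a gene and less RNA per cell cannot be told apart.

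**Figure D2:**
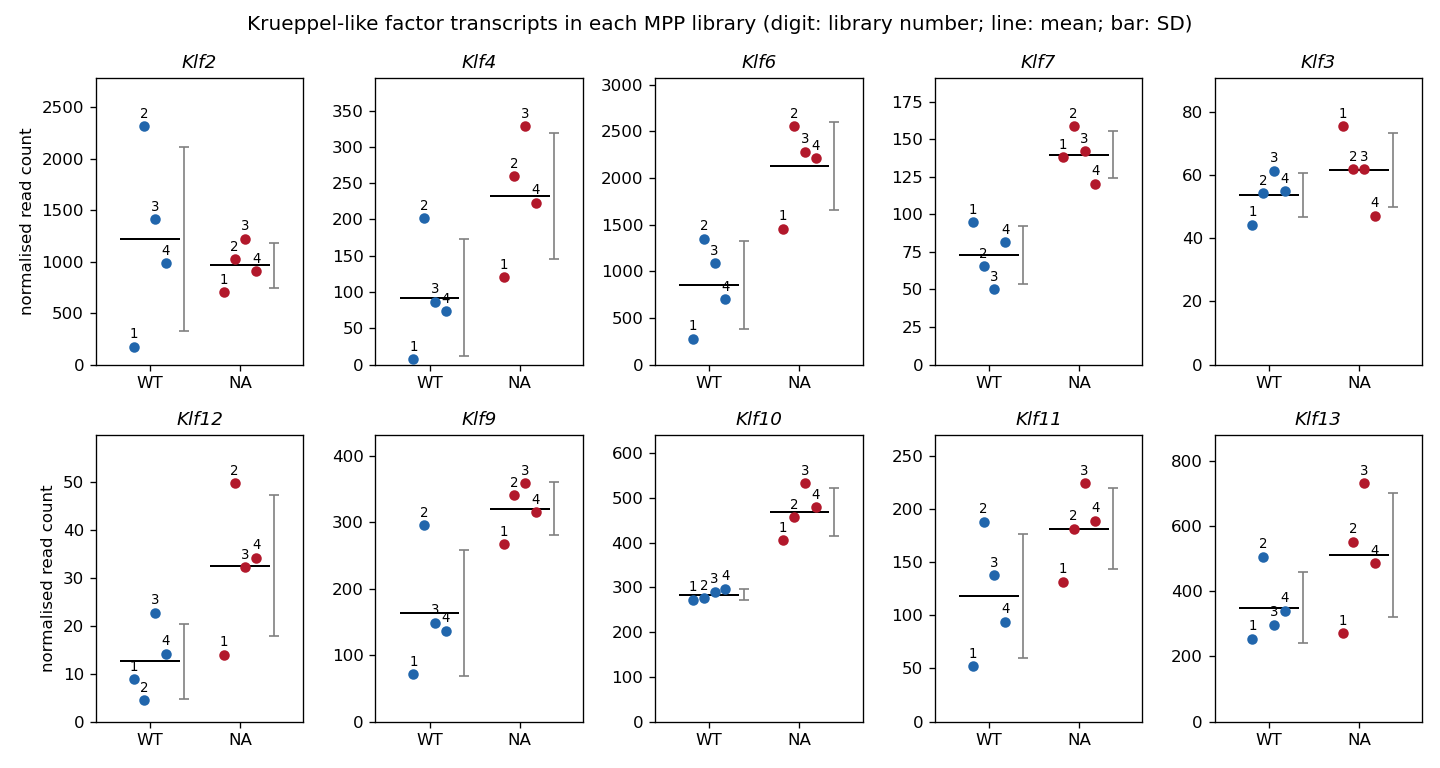
Normalised read count (y axis, linear from 0, scale set per gene) of the 10 members in the WT and NA libraries, each point 1 library with its number, the line the mean and the bar the SD of 4. NA and WT do not overlap in Klf6, Klf7 and Klf10, and WT1 is the lowest WT library in 8 of the 10 genes.

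Among the activators, Klf6, a zinc finger factor first known as an early response gene, rose 2.85-fold. It held 1455, 2555, 2280 and 2209 normalised read counts in NA1 to NA4 and 278, 1349, 1083 and 697 in WT1 to WT4. The lowest NA library lay above the highest WT library, although WT1 was far below the other WT libraries. The means were 2125 ± 471 in NA and 852 ± 467 in WT (SD, n = 4 each), a difference of 1.51 on the log2 scale (SE 0.35, limma adjusted p = 0.00972). Leaving out NA4 and WT4 gave 1.46 (limma adjusted p = 0.0667), no longer past the threshold. Without WT1 it was 1.05 (limma adjusted p = 0.00391).

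Klf7, a broadly expressed relative of Klf6, was higher in every NA library. Its values were 138, 159, 142 and 120 in NA1 to NA4 and 94.99, 65.7, 50.1 and 81.7 in WT1 to WT4. Here WT1 was the highest WT library, the reverse of its place for Klf6. The means of 140 ± 15.8 and 73.1 ± 19.5 (SD, n = 4 each) gave a log2 difference of 0.96 (SE 0.21, limma adjusted p = 0.00688). It was 1.09 without NA4 and WT4 (limma adjusted p = 0.0397).

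Klf2, which in lymphocytes holds cells in quiescence and in endothelium responds to shear, showed the widest fold range of values after Klf4. It held 702, 1025, 1222 and 908 in NA1 to NA4 and 173, 2317, 1414 and 988 in WT1 to WT4. The NA values all lay inside the range of the WT values, which spanned 13.4-fold. The mean was lower in NA (964 ± 218) than in WT (1223 ± 893; SD, n = 4 each), while the mean of the logs was higher. The log2 difference was 0.13 (95% interval -1.03 to 1.29, limma adjusted p = 0.898), an interval that includes both a fall and a rise of more than 1 log2 unit. It was 0.21 without NA4 and WT4 (limma adjusted p = 0.892). Its direction rested on WT1: without that library Klf2 was at -0.65 (limma adjusted p = 0.0729), and without WT1, NA4 and WT4 it was lower in NA by -0.92 (limma adjusted p = 0.0354), a call made with 3 NA and 2 WT libraries. Leaving out WT1 in this way was chosen after the values were seen.

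Klf4, a factor of myeloid differentiation and of reprogramming to pluripotency, had the largest difference of the 10 members and did not pass. It was at 120, 259, 329 and 223 in NA1 to NA4 and at 7.10, 202, 86.5 and 73.7 in WT1 to WT4. WT2 lay above NA1, so the groups overlapped, and WT1 was close to the detection floor of 2.66 that 3 reads give in that library, a floor that covers counting error only. The log2 difference of 1.94 (SE 0.69, 95% interval 0.47 to 3.42) had a limma adjusted p of 0.0659. Without WT1 it was 1.0 (limma adjusted p = 0.0663) without WT2 2.55 (limma adjusted p = 0.0167) and without NA4 and WT4 2.06 (limma adjusted p = 0.175).

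Of the CtBP-binding repressors, Klf3, which restrains erythroid and B cell genes, had values of 75.6, 62.0, 61.9 and 47.2 in NA1 to NA4 and 44.4, 54.4, 61.5 and 55.0 in WT1 to WT4. NA4 lay below 3 of the WT libraries. The log2 difference was 0.18 (95% interval -0.31 to 0.68, limma adjusted p = 0.618), and 0.32 without NA4 and WT4 (limma adjusted p = 0.605). Klf12, a repressor of AP-2 alpha, was the least abundant member, at 14.002, 49.8, 32.3 and 34.3 in NA1 to NA4 and 8.88, 4.53, 22.8 and 14.2 in WT1 to WT4. NA1 lay below WT3 and WT4. Its log2 difference of 1.38 (95% interval 0.29 to 2.46) did not pass (limma adjusted p = 0.0750). It passed when NA1 (1.72, limma adjusted p = 0.0288) or WT3 (1.71, limma adjusted p = 0.0387) was left out, and it missed the threshold without NA4 and WT4 (1.43, limma adjusted p = 0.250).

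Among the Sin3-binding members, Klf10, which TGF-beta induces early, had the smallest spread within WT and the smallest adjusted p. It was at 405, 456, 533 and 478 in NA1 to NA4 and at 273, 275, 290 and 297 in WT1 to WT4. The 4 WT values lay within 1.09-fold of each other and all below the lowest NA value. The means of 468 ± 52.9 and 284 ± 11.6 (SD, n = 4 each) differed by 0.71 on the log2 scale (SE 0.11, limma adjusted p = 0.000684). The difference was 0.72 without NA4 and WT4 (limma adjusted p = 0.0172), and it missed the threshold only when WT1 was left out as well (0.71, limma adjusted p = 0.0551).

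Klf9, a direct target of the glucocorticoid receptor, was at 267, 341, 359 and 315 in NA1 to NA4 and at 71.0, 296, 149 and 137 in WT1 to WT4. NA1 lay below WT2, so the groups overlapped, while the other WT libraries were far below NA. The means were 321 ± 40.1 and 163 ± 94.7 (SD, n = 4 each), and the log2 difference of 1.14 (SE 0.30) passed (limma adjusted p = 0.0180). It missed the threshold once NA4 (1.15, limma adjusted p = 0.0525) or both NA4 and WT4 (1.12, limma adjusted p = 0.102) were left out.

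Klf11, a TGF-beta-induced relative of Klf10, was at 132, 181, 224 and 189 in NA1 to NA4 and at 52.4, 188, 138 and 94.1 in WT1 to WT4. WT2 lay above NA1 and NA2. The log2 difference of 0.74 (95% interval 0.08 to 1.40) did not pass (limma adjusted p = 0.110), and it was 0.40 without WT1 (limma adjusted p = 0.275) 1.01 without WT2 (limma adjusted p = 0.0279) and 0.65 without NA4 and WT4 (limma adjusted p = 0.364). Klf13, which drives the late induction of the chemokine RANTES in T cells, was at 273, 553, 733 and 487 in NA1 to NA4 and at 255, 507, 298 and 341 in WT1 to WT4. NA1 and WT2 broke the separation of the groups. Its log2 difference was 0.51 (95% interval -0.04 to 1.05, limma adjusted p = 0.185), and of the alternatives run it passed only without NA1 (0.78, limma adjusted p = 0.0203). The value without NA4 and WT4 was 0.50 (limma adjusted p = 0.395).

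**Figure D3:**
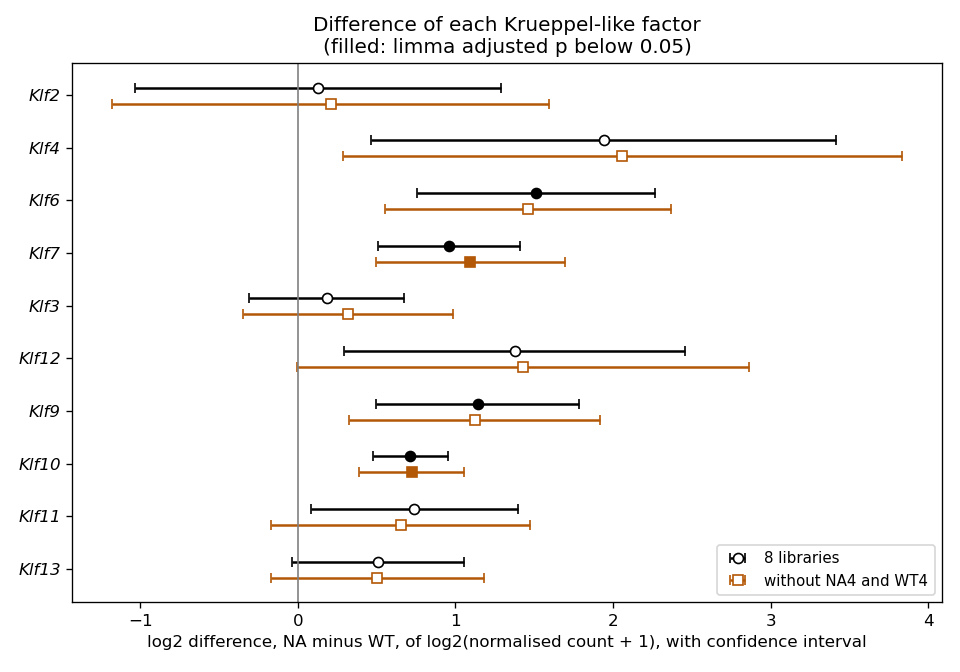
Log2 difference of NA minus WT for each member with its 95% interval (x axis, on log2(normalised count + 1)), with all 8 libraries (circles) and without NA4 and WT4 (squares), filled where the limma adjusted p is below 0.05. The 4 filled circles are Klf6, Klf7, Klf9 and Klf10, and the interval of Klf2 runs from -1.03 to 1.29.

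The groups did not overlap in 3 members, Klf6, Klf7 and Klf10, where 22% of all tested genes did not overlap. What set the members apart from each other was the spread within WT. The coefficient of variation over the 4 WT libraries was 87.6% for Klf4, 73.0% for Klf2, 62.3% for Klf12, 58.1% for Klf9, 54.8% for Klf6 and 49.3% for Klf11. It was 31.5% for Klf13, 26.6% for Klf7, 13.1% for Klf3 and 4.10% for Klf10. The median was 12.6% over the 9000 tested genes with a mean of at least 50, a set that leaves out Klf12. In NA the members ranged from 11.3% to 45.0%, and the median of the same genes was 14.7%. The 45.0% was that of Klf12, and the next highest was 37.3% for Klf4.

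The WT spread had a shared order. WT1 was the lowest WT library in 8 of 10 members, against 27.6% of all tested genes, with Klf7 and Klf12 as the exceptions. Klf2, Klf4, Klf6, Klf9 and Klf11 followed the order WT1, WT4, WT3, WT2 from low to high, an order found in 7.49% of tested genes. In NA, NA1 was lowest in 8 of 10 members (29.2% of all) and NA3 highest in 6 (30.5% of all). As WT4 was close to a weighted sum of WT1 to WT3, its place inside their range is not a separate observation.

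The same libraries were low for immediate early genes, a list of 32 genes such as Fos and Egr1 that are transcribed within minutes of stimulation and during tissue dissociation. Their mean log2 level was 7.38, 9.05, 8.83 and 8.50 in WT1 to WT4 and 9.55, 9.83, 10.04 and 9.66 in NA1 to NA4. WT1 was again the lowest, in 22 of the 27 tested, and all NA libraries lay above all WT libraries. Of the 27, 20 rose in NA and 0 fell, with 24 higher and 0 lower at an unadjusted p below 0.05, and 11 were called higher without NA4 and WT4. Fos was at 20437 ± 665 in NA and 2248 ± 1125 in WT (log2 difference 3.37) and Egr1 at 5419 ± 638 and 904 ± 293 (2.64; SD, n = 4 each). The part of this response in the member differences was not tested.

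**Figure D4:**
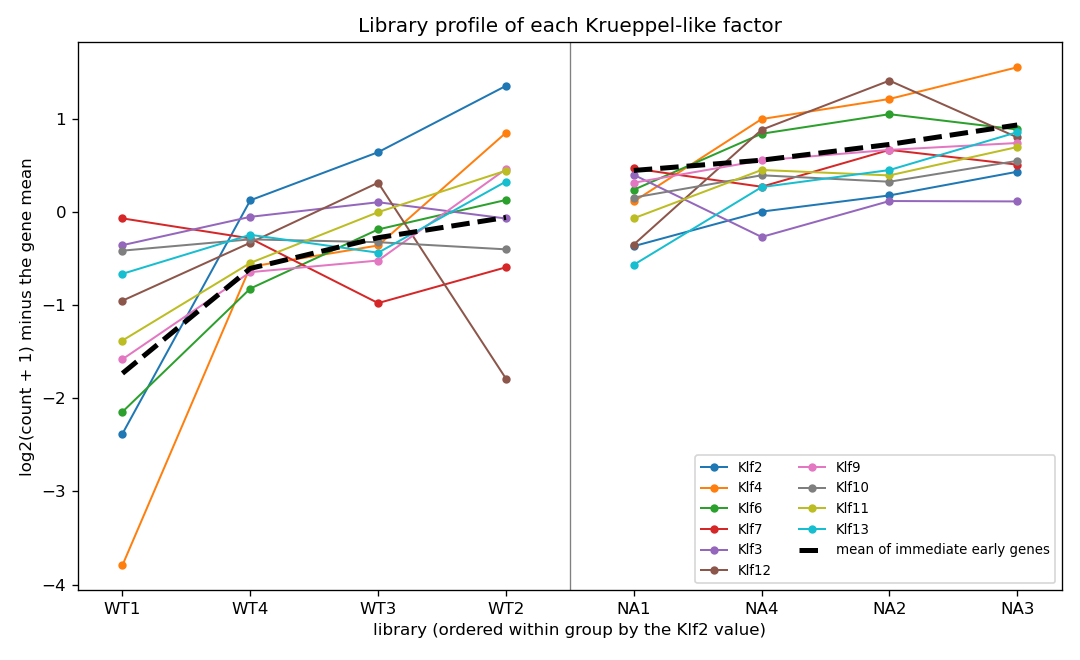
Level of each member in each library (y axis, log2(normalised count + 1) minus the gene's mean over 8 libraries) in the library order of Klf2 within each group (x axis), with the mean of the immediate early genes dashed. Most lines climb from WT1 as the dashed line does, Klf7 and Klf10 do not follow it in WT, and Klf12 is lowest in WT2.

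Pattern was compared for the 3 members with the highest normalised read counts. Across the 8 libraries the genes most like Klf6, by Pearson r of log2(normalised count + 1) over 9000 genes, were Rgs1 (0.99), Nfkbiz (0.98) and Rrad (0.98). For Klf2 they were Tjap1 (0.96), Trib1 (0.95) and Yrdc (0.94), and for Klf13 they were led by Snx18 (0.99) and Pde4b (0.98). Among the members Klf6 ran closest to Klf9 (0.97), Klf4 (0.96) and Klf11 (0.95) and less closely to Klf2 (0.68) and Klf7 (0.45). Klf2 and Klf7 had an r of -0.26. These points share libraries, group and depth, and NA4 and WT4 are close to sums of the others, so the values are descriptions.

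Levels of different genes are comparable only per length, so counts were divided by the length of the longest GENCODE transcript. In both groups the order per kb began with Klf2, Klf6, Klf10 and Klf13 and ended with Klf12. Klf2 was at 522 ± 118 normalised read counts per kb in NA and 662 ± 483 in WT, and Klf6 at 503 ± 111 and 202 ± 110 (SD, n = 4 each). In NA these 2 neighbours did not differ beyond their spread, while in WT2, WT3 and WT4 Klf2 stood well above Klf6. Klf10 followed at 154 ± 17.4 and 93.2 ± 3.82, and Klf13 at 79.9 ± 29.7 and 54.8 ± 17.3. In NA, Klf13, Klf4 (76.9 ± 28.7) and Klf9 (71.5 ± 8.93) did not differ beyond their spread, and neither did Klf9 (36.4 ± 21.1), Klf4 (30.4 ± 26.7) and Klf11 (28.9 ± 14.2) in WT. Klf11 was at 44.4 ± 9.35 in NA. The low end held Klf7 (18.3 ± 2.06 in NA, 9.54 ± 2.54 in WT), Klf3 (11.8 ± 2.22 and 10.3 ± 1.35, indistinguishable from Klf7 in WT) and Klf12 (5.53 ± 2.49 and 2.14 ± 1.33).

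The balance of the leading pair differed between the libraries. Klf6 divided by Klf2, both per kb, was 0.906, 1.09, 0.815 and 1.06 in NA1 to NA4 and 0.702, 0.254, 0.335 and 0.308 in WT1 to WT4. WT1, low in both genes, had the highest WT ratio and still lay below every NA library. Klf4 divided by Klf2 per kb ran from 0.105 to 0.164 in NA and from 0.0250 to 0.0530 in WT. Klf2 made up 33.5% to 37.4% of the per-kb sum of the 10 members in NA and 27.4%, 64.6%, 59.7% and 56.2% in WT1 to WT4. The share of Klf6 was 30.5% to 36.8% in NA and 16.4% to 20.0% in WT. These ratios were chosen after earlier results were known and carry no test.

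**Figure D5:**
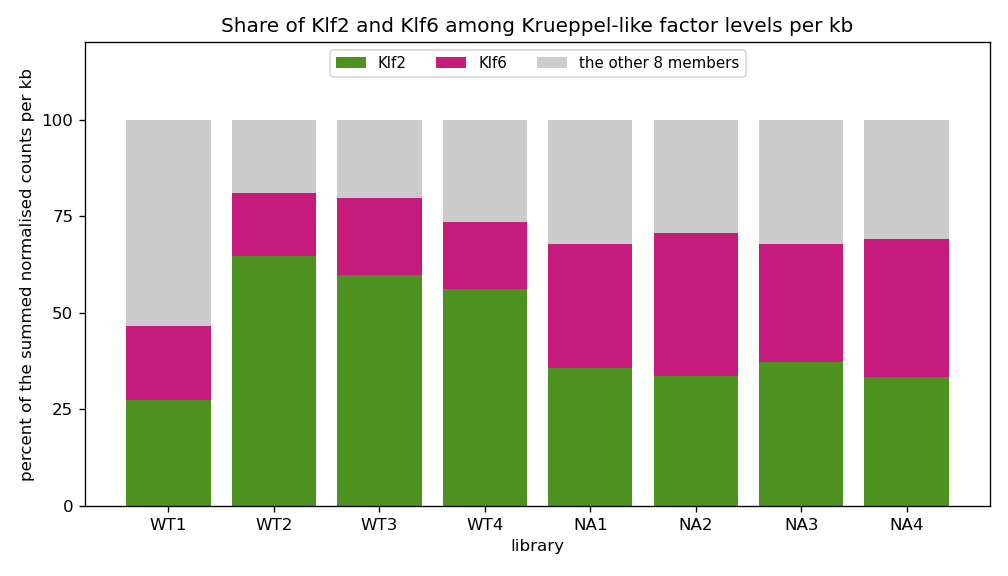
Percent of the summed per-kb level of the 10 members (y axis) held by Klf2, Klf6 and the other 8 in each library (x axis). Klf6 takes 16.4% to 20.0% in WT and 30.5% to 36.8% in NA, and WT1 differs from the other WT libraries in its small Klf2 share of 27.4%.

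Of 7 other family genes, Klf8 and Klf16 passed the low-value filter and neither was called. Klf8, a CtBP-binding relative of Klf3 and Klf12, was at 107 ± 22.9 in NA and 123 on average in WT (log2 difference -0.21), and Klf16 at 25.5 ± 12.8 and 26.7 (-0.15; SD, n = 4). At an unadjusted p below 0.05 there were 0 of 2 as well. Klf14 and Klf17 were listed at 0 in all libraries, and Klf1, Klf5 and Klf15 were below the filter.

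The Sp proteins share the zinc finger and the GC-rich elements of the family. Of 9 Sp genes 4 were tested, 2 rose and 0 fell (0 lower also at an unadjusted p below 0.05). Sp3 was at 143, 185, 151 and 128 in NA1 to NA4 and at 99.4, 94.0, 69.5 and 94.1 in WT1 to WT4 (log2 difference 0.76, limma adjusted p = 0.0113). Sp4 had a log2 difference of 0.63 (limma adjusted p = 0.00703), and in both genes the groups did not overlap. Without NA4 and WT4, 0 Sp genes were called, with differences of 0.86 for Sp3 (limma adjusted p = 0.0621) and 0.56 for Sp4 (limma adjusted p = 0.104). Sp1 (-0.09) and Sp2 (-0.11) were not called.

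Of 13 listed corepressor genes, among them those of CtBP and of the Sin3 complex, 3 rose and 1 fell, with a median of 0.13. Whether the members act through each of them in these cells was not tested. Sap30, a Sin3 subunit, was at 144, 121, 176 and 142 in NA1 to NA4 and at 17.8, 20.4, 20.5 and 31.96 in WT1 to WT4, a log2 difference of 2.66 (limma adjusted p = 8.19e-06). Every NA library lay well above every WT library. Hdac3 (1.11) and the demethylase Kdm1a (0.84) rose and Hdac1 fell (-0.48), while the CtBP genes Ctbp1 (0.19) and Ctbp2 (-0.08) did not pass. Of 4 coactivators, Crebbp (1.55) and Kat2b (0.34, limma adjusted p = 0.0480) rose, 0 fell, and Ep300 was at -0.05. At an unadjusted p below 0.05, 1 coactivator was lower. The calls without NA4 and WT4 were 3 corepressors and 1 coactivator, all higher.

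Of the inputs, the 9 genes of the ERK5, MEF2 and FoxO routes had 3 called higher and 0 lower, with 1 lower at an unadjusted p below 0.05. Map3k3, a kinase upstream of ERK5, had a log2 difference of 1.22, Mef2c 0.49 and Foxo3 0.40, and Mapk7, which encodes ERK5, was at -0.81 and did not pass (limma adjusted p = 0.116). The groups did not overlap in these 4 genes, where 22% of all tested genes did not overlap. For Mapk7 every NA library lay below every WT library. The TGF-beta list had 2 of 5 tested genes higher and 0 lower (also 0 lower at an unadjusted p below 0.05). These were Smad4 (1.63) and the receptor gene Tgfbr1 (0.61). Without NA4 and WT4 there were 2 and 1 calls in these lists.

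The glucocorticoid list had 2 of 6 tested genes called higher and 0 lower (also 0 lower at an unadjusted p below 0.05). Per1, a clock gene, was at 774, 1048, 1261 and 866 in NA1 to NA4 and at 118, 1215, 274 and 384 in WT1 to WT4, with WT2 inside the NA range as for Klf9 (log2 difference 1.46, limma adjusted p = 0.0439). Nr3c1, the receptor itself, had a difference of 0.38 (limma adjusted p = 0.0439). Neither was called without NA4 and WT4 (Per1 1.56, limma adjusted p = 0.130, Nr3c1 0.36, limma adjusted p = 0.221). Leaving out WT1, WT4, NA2 or NA4 alone also left 0 calls in this list. The other tested genes of the list were not called with all 8 libraries. Of these, Fkbp5 was at -0.30 (limma adjusted p = 0.164) and Tsc22d3 at 0.20 (limma adjusted p = 0.350).

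Of 6 genes for proteins that degrade Krueppel-like factors, Vhl (1.82) and Fbxw7 (0.54) were higher and 0 fell, with 1 lower at an unadjusted p below 0.05. Among genes known as targets of family members, the cyclin gene Ccnd2 rose (0.52) and the endothelial coreceptor gene Eng fell (-0.42). S1pr1, a Klf2 target that governs egress, was at 0.38 (limma adjusted p = 0.172), and Cdkn1a at 1.27 (limma adjusted p = 0.186). Without NA4 and WT4, 1 gene of each of these lists was called.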

How the data were processed

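The authors sequenced amplified cDNA of 8 sorted aliquots and quantified genes with RSEM, and per the labels the processing used bcl2fastq, DESeq2 and build mm10. Tool versions, annotation and strand use were not given in the sources used here. The deposited values are a normalised signal: RSEM counts that the authors had divided by 1 size factor per library, with 98.3% to 98.8% of values above 0.5 whole multiples of the library's step within 0.05. Symbols matched 32916 of 37980 rows, and unmatched rows held 0.779% of the summed values. Transcript lengths came from GENCODE M21, whose build is that of the files.

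Groups were taken from sample titles. A gene was tested where 4 or more libraries reached 10 normalised counts. The test was that of limma 3.58.1 (R 4.3.3), run on log2(normalised count + 1) with a variance trend and no covariate, and p-values were Benjamini-Hochberg adjusted over all 11451 tested genes at a threshold of 0.05. Fold changes are on that log2 scale, which understates changes of low genes. The script was first tested on simulated data. The numbers shared by libraries of the groups were not taken as pairs. Same-numbered deviations correlated at 0.15, 0.001, 0.003 and 0.237, and differently numbered ones at -0.142 to 0.179. These values do not settle whether the numbers mark pairs. The members and lists were chosen with earlier results of these data known. Named genes were the members, the other Klf and Sp genes, Hoxa10 and Nup98, Fos, Egr1, Xist, up to 4 called and 2 other genes of each list, and the 3 genes closest in pattern to each of the 3 members with the highest mean normalised count, a scale not corrected for length. Alternatives changed the pseudocount, filter, scaling, variance model, covariates and libraries, and a correction for GC content and the joint removal of WT1 and the fourth libraries were added after seeing the data. Some items of the lists are not reported here.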

Additional observations from a re-analysis of the deposited data

Results flagged for a closer look

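Dixon's test was applied to 58 groups of 4 libraries, of which chance would flag about 2.9, and flagged 2. In NA1, Smad4 was at 340.72 normalised read counts, where the other NA libraries lay between 602 and 611. In the same library Vhl was at 128.82, where the others lay between 271 and 290. No member was flagged in either group.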

How the results depend on the processing

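The direction of 9 members, all but Klf2, was the same under every alternative run. Klf2 turned to -0.65 without WT1 and to -0.92 without WT1, NA4 and WT4. Leaving out 1 library at a time gave 1106 to 2141 called genes (1106 without NA4 and 1294 without WT4) and 3 to 6 called members. The member differences then ranged from -0.65 to 0.60 for Klf2, 1.0 to 2.55 for Klf4, 0.40 to 1.01 for Klf11, 1.01 to 1.72 for Klf12, 0.30 to 0.78 for Klf13 and 0.80 to 1.49 for Klf9. List calls ranged from 1 to 2 for coactivators (2 only without NA2 or WT2), TGF-beta inputs (1 without NA4) and protein turnover (1 without NA4 or WT3) and from 0 to 1 for glucocorticoid genes.

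Without the low-value filter 2 members were called, with Klf6 (1.51) and Klf9 (1.14) lost, as were all glucocorticoid calls (0), and 1 coactivator, 1 other Klf gene and 13 immediate early genes were called. Without the variance trend the members called were again 2, with Klf6 (1.51) and Klf9 (1.14) lost, and 1 coactivator, 0 glucocorticoid and 12 immediate early genes were past the threshold. Scaling by the total left 1 coactivator and 1 glucocorticoid gene, and the share of calls that were higher fell from 56.1% to 41.3%. Removing a GC trend left 1 coactivator, 1 TGF-beta and 1 glucocorticoid gene.

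Whether libraries that share a number were paired was not stated. With that number as a replicate block 6 members were called, Klf4 (1.94) and Klf11 (0.74) added, with 1 coactivator and 1 glucocorticoid gene. With depth class as a covariate 6 were called as well, with Klf4 at 2.29 and Klf11 at 0.92.

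Without NA4 and WT4, 515 genes and 2 members were called, Klf6 (1.46) and Klf9 (1.12) missed the threshold, and calls were 0 for Sp and glucocorticoid genes, 1 each for coactivators, TGF-beta, turnover and targets, and 11 for immediate early genes. With WT1 also left out, 323 genes were called, Klf9 (0.60) and Klf10 (0.71) missed the threshold, and calls were 0 for Sp, glucocorticoid and turnover genes, 1 each for coactivators, ERK5-MEF2 and FoxO, TGF-beta and targets, and 9 for immediate early genes. Fewer libraries entered these fits, and the cause of the other shifts was not tested. Klf12 was not tested at a mean of at least 50. The planned edgeR and DESeq2 fits were not run, because scaled values with fractional read assignments are not counts. Depth limits low values such as Klf12 in WT2, at 4.53 against 3.40 for 3 reads.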
